A study of Mus musculus with 18 samples.

Results

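Of the 15644 genes with counts in the hippocampus of 18 mice, 51 were histone cluster genes, taken as all symbols that start with HIST1H, HIST2H, HIST3H or HIST4H. The C57/B6 mice fell into 3 groups of 6, each with 3 males and 3 females. Younger controls were 9 months old, older controls were 20 months old, and older mice treated with 3TC were 20 months old and received 3TC (lamivudine, a drug that blocks reverse transcriptase) at 2 mg/mL in their drinking water for 6 weeks, whereas both control groups drank water without the drug. Each library came from the whole left hippocampus of 1 mouse, a mixture of neurons, glia and vascular cells, so that fewer cells of a type and less RNA per cell cannot be told apart.

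Histones are the proteins around which DNA is wrapped. Core histones H2A, H2B, H3 and H4 form the nucleosome particle and the linker histone H1 binds the DNA between particles. Most cluster genes have no intron, are transcribed in S phase when DNA is copied, and make mRNAs that end in a conserved stem-loop in place of a polyA tail. The stem-loop is bound by SLBP, and the mRNA is cut a few bases after it with the help of the U7 small nuclear RNA. Some cluster genes also make longer, polyadenylated mRNAs in cells that have stopped dividing, and a few are known mainly from the testis. Adult hippocampus holds mostly cells that do not divide, with a small dividing population in the dentate gyrus, and relies on replacement variants such as H3.3, whose mRNAs carry polyA tails. The study's methods describe total RNA libraries depleted of ribosomal RNA, but the molecule given in the labels is polyA RNA, and the level of cluster mRNAs bears on which of these was sequenced.

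The 51 genes comprised 6 of type H1, 12 H2A, 13 H2B, 9 H3 and 11 H4. In the GENCODE vM21 annotation of GRCm38 (the assembly of mm10, to which the reads were aligned), 45 lie in the HIST1 cluster on chromosome 13, 4 in HIST2 on chromosome 3, 1 (HIST3H2A) on chromosome 11 and 1 (HIST4H4) on chromosome 6, and 49 consist of a single exon block. That annotation holds 67 protein-coding cluster genes, of which the other 16 were not analysed here. For 38 members the annotated transcript reached at least 60 bases past the coding sequence, which allowed a search for the stem-loop in the first 100 bases, and 34 had one, starting 21 to 54 bases after the coding sequence. No such 6-base stem and 4-base loop was found in that window of HIST1H2BC, HIST2H2BE, HIST1H3G and HIST1H4A, which says nothing of other forms. In 16 of the 34, the annotated transcript ran on for more than 200 bases past the stem-loop. There were 6 forms of the 16-base element. They are shown because they separate the histone types: all 9 H4 elements found had the stem GGCCCT or GGTCCT, and all 25 elements of the other types had GGCTCT. One or more examples of each form follow, written 5′ to 3′ as DNA of the coding strand, with the stem-loop in capitals and 5 flanking bases on each side.
HIST1H1E (H1, chr13:23621777-23621802, minus strand): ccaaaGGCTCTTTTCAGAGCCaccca
HIST3H2A (H2A, chr11:58955167-58955192, plus strand): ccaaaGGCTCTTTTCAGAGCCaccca
HIST1H1T (H1 of testis, chr13:23696520-23696545, plus strand): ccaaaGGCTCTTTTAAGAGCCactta
HIST2H2AC (H2A, chr3:96220413-96220438, minus strand): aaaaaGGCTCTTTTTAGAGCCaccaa
HIST1H4C (H4, chr13:23698084-23698109, minus strand): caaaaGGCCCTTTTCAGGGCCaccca
HIST1H4H (H4, chr13:23531453-23531478, plus strand): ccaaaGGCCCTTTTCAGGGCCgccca
HIST2H4 (H4, chr3:96262934-96262959, minus strand): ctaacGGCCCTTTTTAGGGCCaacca
HIST1H4B (H4, chr13:23757361-23757386, plus strand): caaaaGGTCCTTTTCAGGACCactca

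The form of HIST1H1E was the most frequent, with 18 of the 34 genes. The form of HIST1H1T was found in 6, that of HIST1H4C in 5, those of HIST2H4 and HIST1H4B in 2 each and that of HIST2H2AC in 1. In the RefSeq promoters (GRCm38.p6), 46 members could be matched. In the 250 bases before the start, on either strand, TATAAA occurred in 24 of them (52.2%) against 12.4% of all 32851 promoter records, and CCAAT in 39 (84.8%) against 33.8%. A match is a description of letters and not a binding site.

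Reads from many of these genes can be hard to assign. Of all 100-base windows in the annotated transcripts, 9 members shared none with another cluster gene, whereas 12 shared more than 50%, up to 92.0% in HIST1H3H. How the authors' counting split reads among such copies is not given in the sources used here. The paper describes paired-end reads longer than these windows, so shared windows can overstate how many read pairs are ambiguous. HIST1H1E and HIST1H2BE overlap each other on the same strand, HIST1H2AC overlaps Gm24991 and HIST3H2A overlaps Trim17, and 15 members overlap some other annotated gene, so their counts are uncertain in that respect.

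The libraries held 34.6 to 49.1 M counts each (M for mega). Genes took 6.01 to 13.04 M of them, and 63.4% to 85.7% belonged to transposable elements (TEs, counted as repeat subfamilies and including other repeat classes). The TE share spanned 63.4% to 83.6% among younger mice, 68.3% to 85.7% among older mice and 65.9% to 85.1% among those given 3TC. Markers of hippocampal neurons, astrocytes, oligodendrocytes and microglia were present in every mouse. Libraries differed in tissue next to the hippocampus. The summed level of 5 choroid plexus markers ranged from 15.4 CPM (counts per M counts, scaled by TMM over genes and TEs) in DMO2 to 610 CPM in CMO3, with medians of 150.6 CPM in the younger, 216 CPM in the older and 91.9 CPM in the 3TC group, and no marker was at 0. Its part in the results was not tested. The older 3TC-treated female DFO4 had the lowest level of NEUROD6, a marker of hippocampal pyramidal neurons, at 1.56 CPM against a mean of 26.1 over all mice, and the highest level of PRKCD, a thalamus marker, at 74.7 CPM against a mean of 14.9. The sum of 3 thalamus markers was 148 CPM in DFO4, against 20.1 to 55.8 CPM in younger and 18.4 to 25.6 CPM in older mice. Counts that rest on its group are also given without it.

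All 51 genes were detected in every mouse, with no count of 0 and a lowest count of 4 (HIST1H2AA in the younger male YM1). All passed the filter of a mean count above 10, as did 15635 of all 15644 genes. Genes of other tissues such as DEFA5 (lowest count 4), WAP (16) and CSN2 (21) also had no count of 0. The share of all genes detected in every mouse is not given here. Together the 51 members took 2960 to 6775 counts per mouse, or 474 to 583 per M gene counts. H4 genes contributed 40.8% of these counts, H1 genes 20.6%, H2B genes 15.1%, H2A genes 14.3% and H3 genes 9.13%. The 12 genes with the highest levels held 65.6% of the total. The sum was 508 to 583 per M gene counts (mean 538 ± 26.3, SD, n = 6) in the younger group, 475 to 583 (522 ± 46.4, n = 6) in the older group and 474 to 522 (493 ± 18.1, n = 6) in the older 3TC-treated group. The 3 ranges overlapped. Without the 4 genes listed as polyadenylated in the table, the means were 440 ± 24.7, 426 ± 39.0 and 408 ± 12.3 (SD, n = 6 each). Scaled to all counts, TEs included, the sum per M counts ranged from 70.2 in the older female CFO2, which had the highest TE share, to 190 in YM1, which had the lowest. A higher TE share lowers this value through the scaling itself, so that order is no separate observation.

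HIST1H4C, an H4 gene, had the highest mean level in CPM. It had 208, 442 and 767 counts (lowest, median and highest) in younger mice, 227, 449.5 and 595 in older mice and 247, 425.5 and 660 in older 3TC-treated mice. In CPM these were 5.78, 11.5 and 16.03 in younger, 7.14, 11.8 and 14.1 in older and 7.24, 9.96 and 14.1 in older 3TC-treated mice. The groups overlapped over most of their range. HIST1H4H followed with 292, 387.5 and 574 counts in younger, 193, 382 and 600 in older and 261, 470.5 and 685 in older 3TC-treated mice. HIST1H1E, a linker histone gene of somatic cells, had 303, 366.5 and 584 counts in younger, 231, 396.5 and 608 in older and 230, 473 and 711 in older 3TC-treated mice. HIST1H4D, the fourth by mean level, had 317, 388.5 and 618, 217, 390 and 512, and 217, 436.5 and 616 counts in the same order. These 4 genes had similar levels, with means of 10.03 to 10.81 CPM and SDs of 1.93 to 2.95 over the 18 mice, so that their order lies within the spread between mice.

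Of the next 8, 4 are known to make polyadenylated mRNAs. HIST3H2A had 7.35 CPM (SD 1.69, n = 18 here and in the rest of the paragraph), HIST1H1C, a linker histone gene expressed in non-dividing cells, 5.92 CPM (SD 1.34), HIST1H2BC 4.53 CPM (SD 1.2) and HIST2H2BE 3.48 CPM (SD 0.453). The other 4 were HIST1H1D at 4.20 CPM (SD 0.898), HIST2H4 at 3.41 (SD 0.777), HIST1H2BE at 3.27 (SD 0.376) and HIST1H4K at 3.00 (SD 0.598). HIST2H2BE varied the least in counts among the polyadenylated members, with 121 to 174 counts over all mice against 147 to 508 for HIST3H2A. The 3 members known mainly from the testis were near the low end. HIST1H1T had 16, 28.5 and 42 counts in younger, 17, 24 and 33 in older and 16, 32.5 and 37 in older 3TC-treated mice. HIST1H2AA had 4, 14 and 23, 11, 17.5 and 24, and 11, 20 and 30, and HIST1H2BA had 10, 14.5 and 20, 12, 15 and 23, and 11, 16.5 and 27. Their groups overlapped throughout, and at such counts only large differences could be detected.

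**Figure D1:**
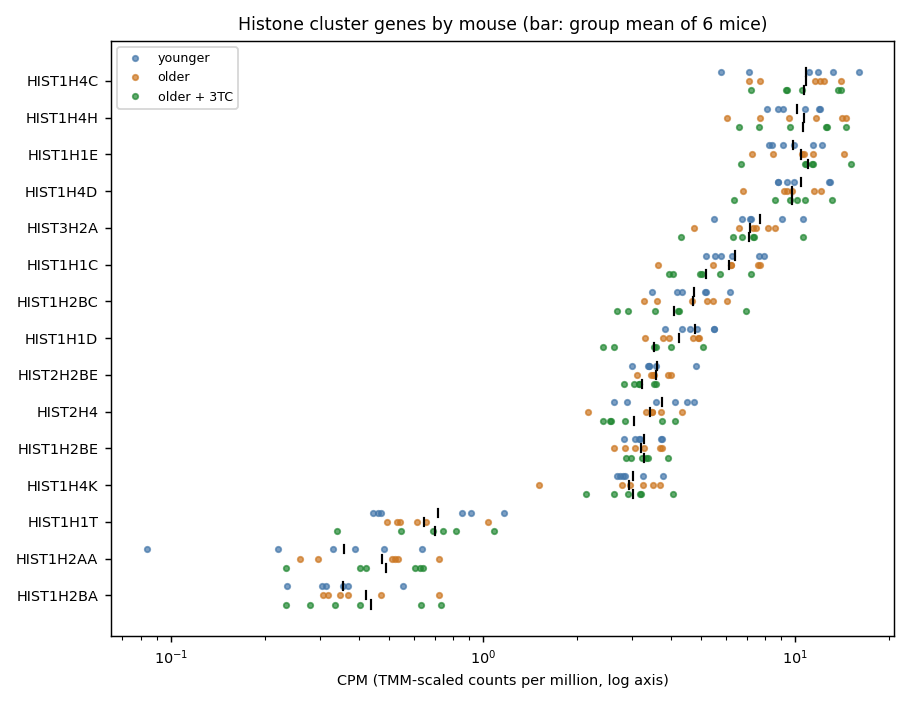
TMM-scaled CPM (counts per M counts, log axis) of the 12 histone cluster genes with the highest mean levels and of the 3 members known mainly from the testis. Each point is 1 mouse and each bar the mean of 6 mice, and the 3 groups overlap for every gene shown, from HIST1H4C at 5.78 to 16.03 CPM down to HIST1H2BA at 0.235 to 0.733 CPM.

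Levels between genes were compared per kilobase of annotated exon, a scale that understates genes whose annotation runs far past the stem-loop, such as HIST1H1D with 7425 exon bases. On this scale HIST1H4H was the highest at 22.3 CPM per kb, above 98.9% of the 15587 genes with a length, followed by HIST1H4C at 13.2 and HIST1H4K at 9.62. HIST1H2BH was the lowest at 0.299. The median over the 51 members was 1.67 CPM per kb, close to the 1.63 of all genes, and 26 members were above the median gene. The 11 H4 genes had a median of 5.50 and those of H1, H2A, H2B and H3 had medians of 2.04, 1.43, 1.29 and 1.49.

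The level that counts reach in genes the tissue is not expected to use was taken as a floor for this scale. The 56 interferon alpha, keratin-associated and trace amine receptor genes in the table (53 of a single exon block) had a median of 0.685 and a highest value of 1.18 CPM per kb. Of the 51 members, 45 were above that median and 36 above that highest value. The paper, however, names IFNA1, IFNA5 and IFNA14 of this list among genes whose increases partly drove its pathway results. The symbol prefixes that chose this list also took IFNAR1 (2.65 CPM per kb) and IFNAR2 (1.90 CPM per kb), interferon receptor genes with many exons that are widely expressed, and these were left out after their values were seen. With them 15 members were above the highest value. The 22 intron-containing genes of other tissues, such as casein and protamine genes, had a median of 1.06 and a highest value of 1.76 CPM per kb, and 24 members were above this. The testis members HIST1H1T (0.757), HIST1H2BA (1.06) and HIST1H2AA (1.13) lay within the range of both lists, as did some other members. The 11 replacement variant genes had a median of 3.71 and a highest value of 15.3 for H3F3B, which encodes H3.3, and 25 genes of S phase and proliferation had a median of 0.902. The TE table holds an entry named 7SK, after a small nuclear RNA that is transcribed by RNA polymerase III and has no polyA tail. TEs were counted as repeat subfamilies with multi-mapping reads included. The 7SK RNA itself therefore cannot be told apart in this entry from other copies of its sequence. The entry had 58256 to 129880 counts per mouse, or 1708 to 3246 CPM. The other RNAs without polyA tails that were looked for were not among the genes analysed here. Whether the libraries were selected for polyA tails was not tested.

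**Figure D2:**
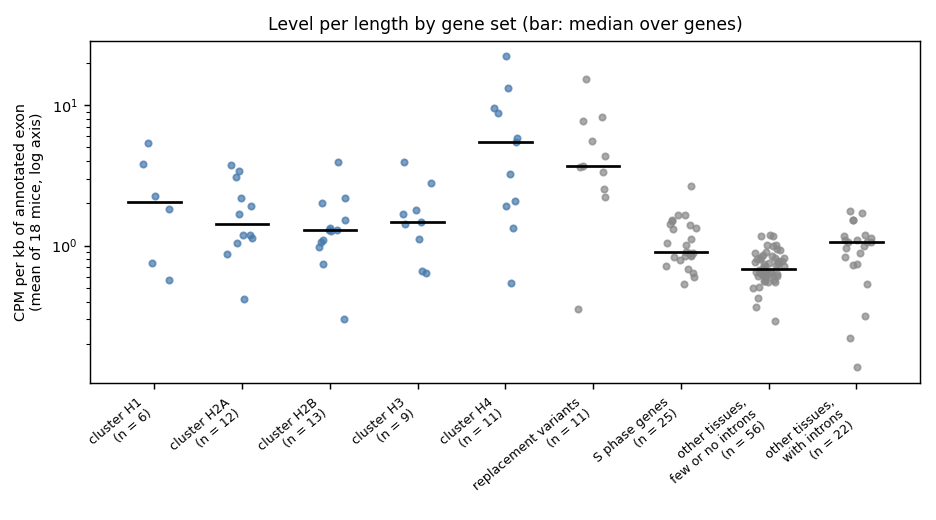
Mean level over 18 mice in CPM per kb of annotated exon (log axis) of the 51 histone cluster genes by type (blue) and of 4 comparison lists (grey). Each point is 1 gene and each bar the median over genes. The H4 genes have the highest median (5.50). Some H1, H2A, H2B and H3 genes, and the H4 gene HIST4H4 (0.540), lie at the level of genes of other tissues (medians 0.685 and 1.06).

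With aging, no histone cluster gene passed the test. Counts of genes and TEs were fitted together with edgeR's quasi-likelihood test, with Benjamini-Hochberg adjustment over 16774 features and a threshold of 0.05. Of the 51 members, 0 were called between older and younger mice, against 0.0119% of all features (2 of 16774), and 0 had an unadjusted p under 0.05, against 0.399% of all features. DESeq2 also called 0 members, with 0 at an unadjusted p under 0.05. In the older mice 37 of 51 members had a log2 fold change below 0, where 53.6% of all genes did, and the median member was at -0.07 against -0.01 for all genes. That median was -0.13 without YF2 and -0.04 without CFO2. Standard errors were 0.12 to 0.39 on the log2 scale, with a median of 0.21. All 51 members overlapped between the groups, a count for which no share over all features is given here.

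The 3 lower members with the smallest p were HIST1H3I, HIST1H3D and HIST1H2AK, core histone genes of types H3, H3 and H2A. HIST1H3I had 1.53, 1.86 and 2.64 CPM (lowest, median and highest) in younger mice against 1.04, 1.5 and 2.20 in older mice. Its log2 fold change was -0.35 (SE 0.19), with an unadjusted p of 0.0809 and an adjusted p of 1.0 (edgeR). The values of HIST1H3D were 1.95, 2.09 and 2.55 against 1.26, 1.81 and 2.13 CPM, and all 6 older mice were below the younger mean (log2 fold change -0.30, SE 0.17). HIST1H2AK had 1.14, 1.5 and 1.78 against 0.878, 1.18 and 1.42 CPM, again with all 6 older mice below the younger mean (-0.29, SE 0.17). On the other side, HIST1H4A (0.19, SE 0.15), HIST1H2AA (0.41, SE 0.39) and HIST1H3B (0.27, SE 0.36) had the smallest p values among the members with positive changes. For each of these the older and younger ranges overlapped, and none had an unadjusted p under 0.05 (edgeR). The gene with the highest level, HIST1H4C, was at -0.0046 (SE 0.22), and the 4 polyadenylated members were between -0.11 (HIST3H2A, SE 0.18) and -0.0059 (HIST2H2BE, SE 0.12). At an unadjusted p under 0.05 there was 1 member without YF3, CMO1 or CFO2. There were 2 with scaling by total counts or with the TE share as a term. Shares of all features under these alternative fits are not given here.

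With 3TC, no member passed the test either. Of the 51 members, 0 were called between older 3TC-treated and older mice, against 0% of all features (edgeR and DESeq2 each called 0). With edgeR, 2 members (3TC lower in both) had an unadjusted p under 0.05, against 1.16% of all features, and DESeq2 gave 2 as well. The log2 fold change was below 0 in 33 of 51 members, where 46.6% of all genes were, with a member median of -0.08 against 0.01. The count of members at an unadjusted p under 0.05 moved from 2 to 0 without DMO2 or CFO1, to 1 without YM8, YF8, YF3, YF2, DMO5, DFO8, DFO4, CMO6 or CFO3, and to 4 without DFO5 or CFO2. It was 7 with the TE share as a term, 1 with sex as a term and 0 when only these 2 groups were fitted. Shares of all features under these alternative fits are not given here. Without DFO4, the library with high thalamus markers, 0 members were called and the member median was -0.08. The median was -0.03 without DFO8, -0.04 without CMO3, -0.05 without CMO1 and -0.12 without DFO5.

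HIST1H2AD, an H2A gene, had the smallest p in this comparison. It had 11, 21.5 and 25 counts (lowest, median and highest) in older mice and 9, 14.5 and 19 in older 3TC-treated mice. In CPM these were 0.320, 0.563 and 0.616 against 0.192, 0.327 and 0.557, and 5 of 6 treated mice were below the older mean. The log2 fold change was -0.61 (SE 0.27), with an unadjusted p of 0.0370 and an adjusted p of 1.0 (edgeR). HIST1H4I, an H4 gene, had 0.900, 1.28 and 2.06 CPM in older mice against 0.733, 1.05 and 1.49 in treated mice (log2 fold change -0.48, SE 0.23, unadjusted p of 0.0478 and adjusted p of 1.0 with edgeR). HIST1H2AE was at -0.37 (SE 0.19), with all 6 treated mice below the older mean. The positive members with the smallest p were HIST1H2BL (0.48, SE 0.29), HIST1H1B (0.20, SE 0.19) and HIST1H4B (0.15, SE 0.18). HIST1H4C was at -0.014 (SE 0.22), HIST1H4H at -0.0036 (SE 0.21) and HIST1H1E at 0.08 (SE 0.17), and the linker histone genes HIST1H1C and HIST1H1D at -0.25 (SE 0.17) and -0.26 (SE 0.16).

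Older 3TC-treated mice were also set against younger mice, a comparison that shares its mice with the other 2. Again 0 of 51 members were called with edgeR or DESeq2, against 0.0119% of all features. At an unadjusted p under 0.05 there were 11 members, all lower in the treated older mice, against 1.72% of all features in either direction and 0.793% in the lower direction, and DESeq2 also gave 11. The 11 were 5 H2A genes (HIST1H2AK, HIST1H2AD, HIST1H2AE, HIST1H2AC and HIST1H2AB), 3 H3 genes (HIST1H3D, HIST1H3H and HIST1H3I), the H4 genes HIST1H4I and HIST4H4, and the linker histone gene HIST1H1D. The count was 6 without DMO1, 7 without YF2 and 8 without DFO4. With the TE share as a term it was 16, of which 1 was higher. Shares of all features under these alternative fits are not given here, so these counts have no background beside them. In all, 38 of 51 members were below 0 against 48.7% of all genes, and the member median was -0.12 against 0.00 (-0.14 without DFO4).

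HIST1H2AK had the smallest p. It had 1.14, 1.5 and 1.78 CPM in younger mice against 0.752, 0.941 and 1.30 in older 3TC-treated mice, and all 6 treated mice were below the younger mean although the ranges overlapped. The log2 fold change was -0.57 (SE 0.17, unadjusted p of 0.00350, adjusted p of 1.0 with edgeR), against -0.29 for older minus younger and -0.28 for older 3TC-treated minus older. HIST1H2AD (0.445, 0.644 and 0.711 against 0.192, 0.327 and 0.557 CPM) was at -0.84 (SE 0.27), and HIST1H4I (1.14, 1.55 and 2.13 against 0.733, 1.05 and 1.49 CPM) at -0.66 (SE 0.23). Both had all 6 treated mice below the younger mean. HIST4H4, the only member on chromosome 6, was at -0.51 (SE 0.21), with 1.5, 1.90 and 2.0 CPM in younger and 0.796, 1.19 and 2.0 in treated mice. Of the 12 members with the highest levels, HIST1H1D alone was among the 11. The positive members with the smallest p were HIST1H4A (0.21, SE 0.15), HIST1H2AA (0.47, SE 0.38) and HIST1H1E (0.16, SE 0.17).

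**Figure D3:**
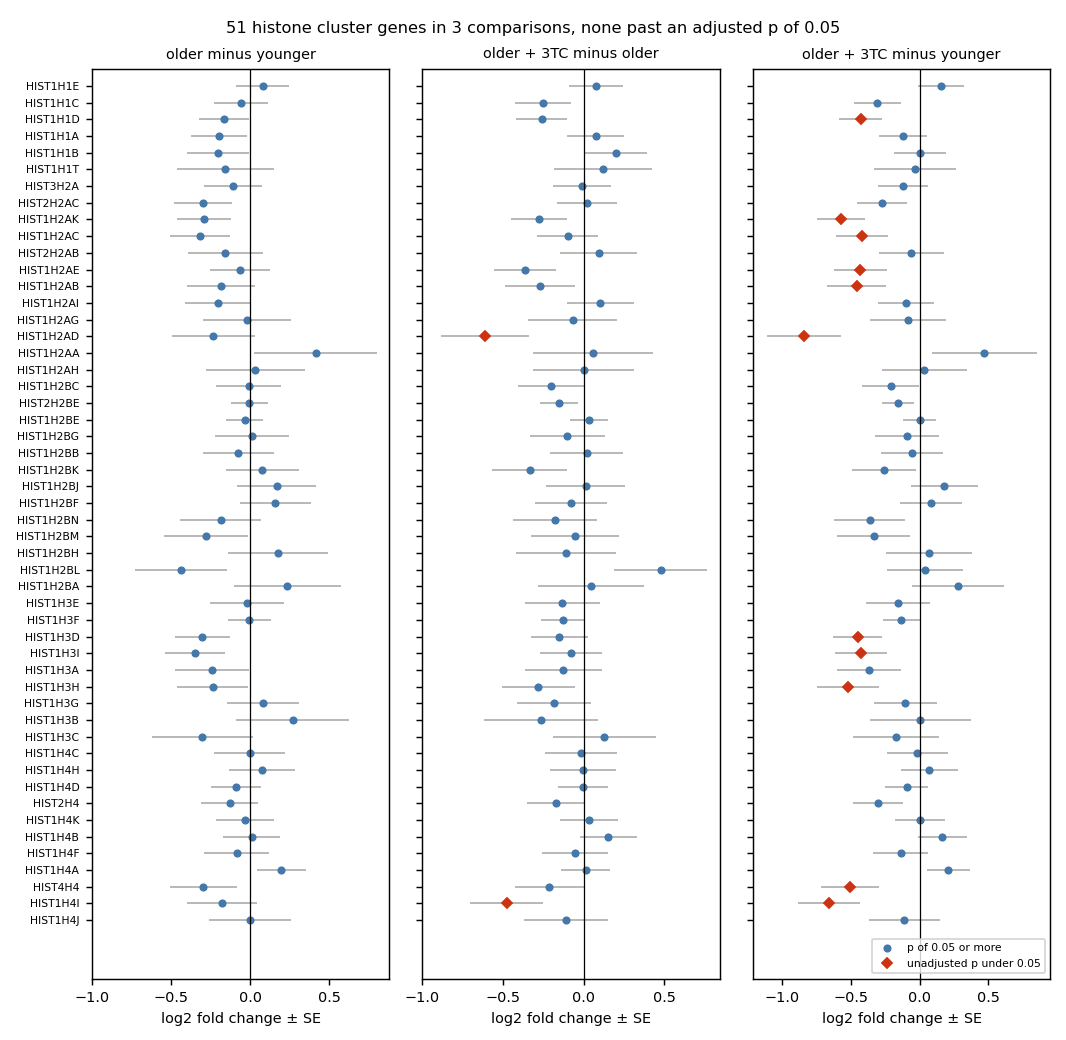
Log2 fold change ± SE (edgeR) of each of the 51 histone cluster genes in the 3 comparisons of 6 against 6 mice, ordered by type and mean level. Red diamonds mark an unadjusted p under 0.05 (0, 2 and 11 genes from left to right), no gene passed after adjustment, and the medians are -0.07, -0.08 and -0.12.

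The members differed from each other in how their level moved with the TE share of a library. Within groups, the log2 level of each gene among genes was fitted against the TE share (edgeR's quasi-likelihood test with TMM factors from genes, slope per 10 percentage points). Of the 51 members, 12 had higher levels at a higher TE share and 12 had lower levels, against 41.7% and 35% of all 15635 genes, so that neither share of members exceeded that of other genes. Scaling by total gene counts alone moved the median slope of all genes by 0.20, from 0.03 to 0.23, the split to 22 higher and 5 lower members and the median member from -0.05 to 0.15. The share of higher among all called genes then moved from 54.4% to 83.9%. Slopes are given relative to other genes, and no called member changed its sign with the scaling.

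Members with the highest levels mostly had lower levels at a high TE share. Of the 12 highest, 9 were called lower, 1 higher (HIST2H2BE) and 2 not at all (HIST1H2BE and HIST1H4K), and with scaling by total counts 4 remained called lower and 2 were called higher. From here on, levels per M gene counts are TMM-scaled over genes, unlike the unscaled sums given earlier. HIST1H4C had 767 counts, or a TMM-scaled 68.6 per M gene counts, in YM1 at a TE share of 63.4%. In CFO2, at 85.7%, it had 227 counts, or a TMM-scaled 32.0. Its slope was -0.51 (SE 0.10, adjusted p of 7.94e-05 with edgeR). HIST3H2A had 45.4 per M gene counts in YM1 and 45.1 in DFO5, the mice with the lowest TE shares, and 21.3 in CFO2 and 19.5 in DMO5, the mice with the highest, with a slope of -0.45 (SE 0.06, adjusted p of 2.52e-06). HIST1H2BC (-0.47, SE 0.08) and HIST1H1E (-0.39, SE 0.06) were also called lower. These 4 and HIST1H2BG (-0.43, SE 0.10) remained called lower with scaling by total counts, at -0.32, -0.25, -0.27, -0.19 and -0.23 for HIST1H4C, HIST3H2A, HIST1H2BC, HIST1H1E and HIST1H2BG. The other 7 were HIST2H4 (-0.36), HIST1H4D (-0.33), HIST2H2AC (-0.32), HIST1H1C (-0.30), HIST1H4H (-0.29), HIST1H1D (-0.26) and HIST1H3D (-0.22), which lay between -0.16 and -0.03 and were not called with total counts.

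The testis members showed the opposite sign. HIST1H2AA had 4 counts, or a TMM-scaled 0.358 per M gene counts, in YM1 and 22 counts, or 2.92, in DMO5. Its slope of 0.98 (SE 0.15, adjusted p of 1.2e-05 with edgeR) was the highest of all members. HIST1H1T had 1.97 and 1.45 per M gene counts in YM1 and DFO5 and 4.91 and 4.65 in DMO5 and CFO2, with a slope of 0.72 (SE 0.13), and HIST1H2BA had a slope of 0.66 (SE 0.16). The others called higher were HIST1H3C (0.68), HIST1H2BH (0.56), HIST1H2AH (0.53), HIST1H3B (0.48), HIST1H3A (0.46), HIST1H2AG (0.40), HIST1H2BM (0.37), HIST1H1B (0.26) and HIST2H2BE (0.25). All but HIST1H1B and HIST2H2BE had a mean level under 1 CPM. The other polyadenylated members, HIST3H2A, HIST1H2BC and HIST1H1C, were all called lower, whereas HIST2H2BE was called higher.

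By type, all 11 H4 genes had negative slopes, 4 of them called, and their median was -0.21, but with total counts HIST1H4B, HIST1H4K, HIST1H4A, HIST1H4J and HIST1H4F moved above 0. H2B genes had a median of 0.19 with 10 of 13 above 0, H3 genes 0.26, H2A genes 0.06 and H1 genes -0.02, the last turning to 0.18 with total counts. Of the 16 members annotated more than 200 bases past the stem-loop, 8 were called lower and 1 higher (median -0.22, or -0.03 with total counts). Of the 18 with shorter tails, 3 were called lower and 6 higher (median 0.13, or 0.33 with total counts). Among all genes, 35% were called lower and 41.7% higher. Several of the 16, such as HIST1H4C, HIST3H2A and HIST1H1E, are also among the 12 highest members, so tail length and level cannot be told apart here. The same fit gave positive slopes in all 56 interferon alpha, keratin-associated and trace amine receptor genes (56 called higher, median 0.74) and in all 22 intron-containing genes of other tissues (22 called, median 0.68). Of 25 genes of S phase and proliferation, 22 were called higher and PCNA, the sliding clamp of DNA polymerase, lower (median 0.52), although with total counts PCNA was no longer called. Of 11 replacement variants, 9 were called lower (median -0.24), among them H3F3B (-0.45, SE 0.05) and H3F3A (-0.48, SE 0.06), while CENPA, the centromeric H3 variant, and H2AFY2 were called higher. With total counts 3 of these were called lower (H1F0, H3F3A and H3F3B) and H2AFX and H2AFV moved above 0. What the TE share of a library reflects was not tested.

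Some of these calls rested on single mice. HIST1H4H was no longer called without DMO5, DFO5, CMO6 or CFO2 (slopes -0.26 to -0.21, edgeR adjusted p of 0.0826 to 0.116), HIST1H1D without DFO5 (-0.20, 0.0533) and HIST1H3D without YF3, DMO5, DFO5 or CFO2 (-0.22 to -0.17, 0.0506 to 0.158). HIST1H1B was lost without YM2, YF3, DMO5, DFO5, CMO6 or CFO1 (0.21 to 0.26, 0.0504 to 0.129), HIST1H2BM without YM1 or CMO6 (0.27 to 0.33, 0.0846 to 0.100), HIST1H2AG without YM1, YF3, DFO5, CMO6 or CFO2 (0.31 to 0.43, 0.0508 to 0.111) and HIST1H3B without DMO5, DFO5, CFO2 or CFO1 (0.37 to 0.44, 0.0531 to 0.126). The other 17 called members stayed called whichever mouse was left out.

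**Figure D4:**
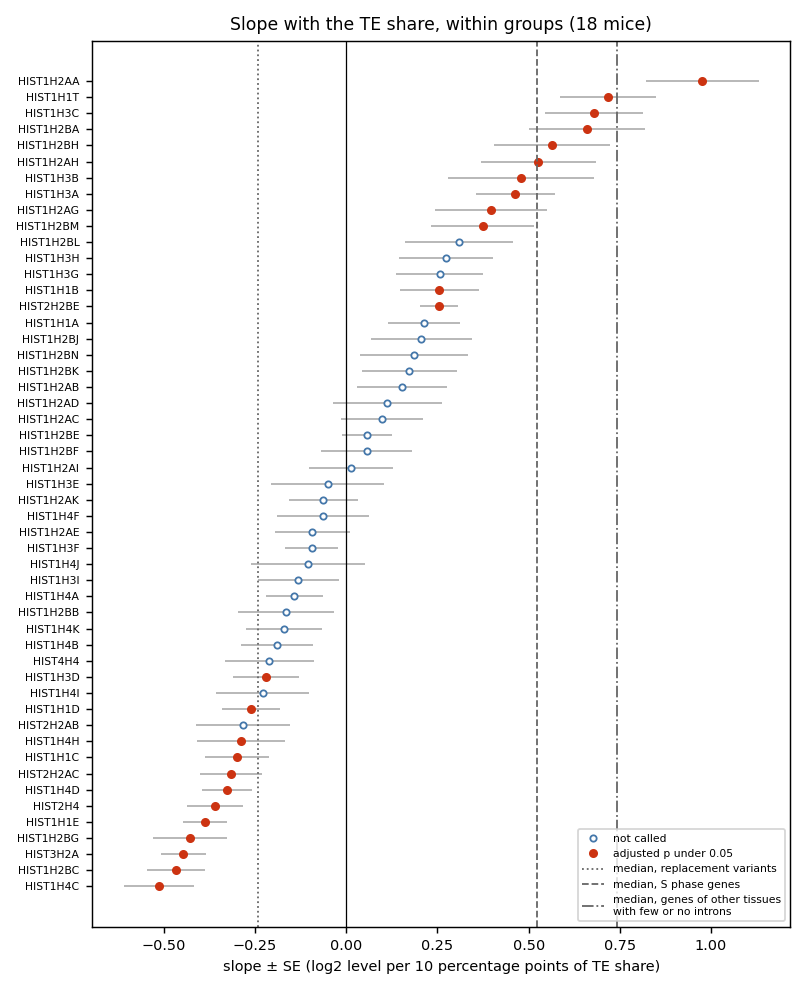
Slope ± SE of the log2 level on the TE share (per 10 percentage points, within groups, 18 mice, edgeR) for the 51 histone cluster genes. Filled points passed an adjusted p of 0.05 (12 higher and 12 lower, or 22 and 5 with scaling by total counts), and vertical lines give the medians of 3 other gene lists (-0.24, 0.52 and 0.74).

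**Figure D5:**
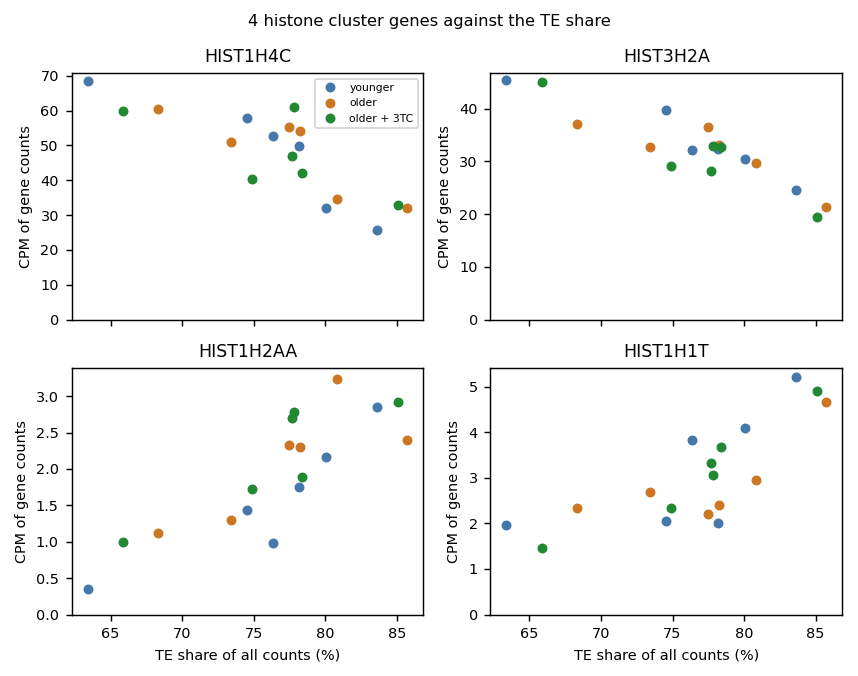
Counts per M gene counts (TMM-scaled) of 4 histone cluster genes against the TE share of each mouse in percent, 1 point per mouse. In the mice with the lowest and highest TE share, HIST1H4C had 68.6 and 32.0, HIST3H2A 45.4 and 21.3, HIST1H2AA 0.358 and 2.40, and HIST1H1T 1.97 and 4.65.

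Between the sexes no member passed the test. Of the 51 members, 0 were called between 9 females and 9 males in edgeR with group as a term, against 1.53% of all features, and 0 had an unadjusted p under 0.05, against 2.76%. There was 1 such member without DMO5 and there were 2 without DFO5. DESeq2 was not run for this comparison. The smallest p values were those of HIST1H4H (female minus male -0.28, SE 0.16) and HIST1H4B (-0.23, SE 0.14) on the lower side and HIST1H2BF (0.25, SE 0.18), HIST1H1A (0.19, SE 0.14) and HIST1H2BN (0.26, SE 0.21) on the higher side, with HIST1H1B at -0.21 (SE 0.16). The difference of the aging change between the sexes was called in 0 members and 0% of features, with 1 member (HIST1H3E, -1.18, SE 0.39) at an unadjusted p under 0.05 against 0.191% of all features, 2 without YM2, YM1, YF3, DFO5 or CFO1 and 3 without YF2. That of the 3TC change was also called in 0 members and 0% of features. At an unadjusted p under 0.05 there were 6 members, all more positive in females (HIST1H1E, HIST1H4H, HIST1H3E, HIST1H1C, HIST1H4D and HIST1H4F), against 7.7% of all features in either direction. Of 15635 genes, 724 were more positive and 459 more negative in females at this threshold. There were 10 such members without DFO4, of which 8 were more positive in females, and 10 without DMO1 or CFO1. There were 12 without DFO8, 3 without DMO5 and 1 without DFO5, and 0 members were called in each. For the fits of this paragraph that left out a mouse, shares of all features are not given here. The TE share moved with this contrast: among males it was 68.3%, 77.5% and 80.8% in older and 77.7%, 78.4% and 85.1% in older 3TC-treated mice, and among females 73.4%, 78.2% and 85.7% in older and 65.9%, 74.9% and 77.8% in older 3TC-treated mice. The median over the 56 interferon alpha, keratin-associated and trace amine receptor genes was -0.65 in this contrast and that of the 12 highest members 0.67. The part of the TE share in the sex difference was not tested.

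Genes that act on histones or their mRNAs were also without calls in the 3 group comparisons (edgeR). Of 11 replacement variants, 11 tested genes of histone mRNA processing such as SLBP and NPAT, 12 histone chaperones and 25 genes of S phase and proliferation, 0 were called with aging, 0 with 3TC and 0 between treated older and younger mice. At an unadjusted p under 0.05, 1 S phase gene was lower with 3TC and there was none elsewhere in these lists. The median log2 changes with aging were -0.02, 0.00, 0.01 and 0.00, and those with 3TC were -0.04, 0.05, -0.00 and 0.02, beside -0.01 and 0.01 for all genes.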

How the data were processed

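Hippocampus RNA-seq counts of 18 mice were used, 6 in each of 3 groups taken from the sample labels, each mouse a separate animal. The deposited values were raw counts of reads per gene and per TE. Per the paper, reads were trimmed with fastp, aligned with STAR to mm10 and counted with STAR (genes) and TEtranscripts (TEs, multi-mapping reads included). The gene annotation and the tools' versions are not given in the sources used here. Total counts were 34.6 to 49.1 M per mouse. Every pair of mice differed beyond counting noise (chi-square divided by its degrees of freedom at least 3.10).

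The main test was edgeR 4.0.16 under R 4.3.3 (TMM, quasi-likelihood test, mean count above 10, 3 groups in one model, Benjamini-Hochberg over 16774 features, threshold 0.05). The slope with the TE share was fitted over 15635 genes with group as a term, per 10 percentage points. The scripts were tested on simulated data. Members, lists and alternatives were chosen with earlier results of these data known. Named genes were the 12 members with the highest mean CPM, in each comparison and direction the 3 with the smallest p, the polyadenylated and testis lists and every called member. Among the alternatives were DESeq2 1.42.0, other scalings and filters, added terms and leaving out each mouse. Animals that share a sex and label number in different groups are different mice. Coordinates and lengths are from GENCODE vM21, promoters from RefSeq. Summaries used Python 3.11.15 and plots matplotlib 3.10.9.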

Additional observations from a re-analysis of the deposited data

Results flagged for a closer look

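In 90 sets of 6 mice (the levels of 29 named members and the summed level, in each group), 5 had 1 mouse far from the other 5, where chance alone gives about 1 in 20. In older mice, CFO2 had 1.04 CPM of HIST1H1T and 0.598 CPM of HIST1H2BL, both the highest of the group, and this mouse had the highest TE share. CMO3 had the lowest HIST1H2AD of the older mice at 0.320 CPM. DFO5 had the highest HIST1H2BC of the older 3TC-treated mice at 7.0 CPM and the lowest TE share of its group. YF3 had the highest HIST2H2BE of the younger mice at 4.84 CPM and the highest TE share of its group. The part of the TE share in these values was not tested for single mice.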

How the results depend on the processing

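In the 3 group comparisons and between the sexes, 0 members were called under every alternative run. Leaving out each mouse for the sex differences, and leaving 2 receptor genes out of a comparison list, were chosen after seeing the data. The counts of all features called moved with the processing. With aging (2 called) there were 0 with total counts only, 4 with the TE share as a term and 0 with sex and label number as a replicate block. Between older 3TC-treated and younger mice (2 called) there were 1 with TMM factors from genes only, 0 with total counts only, 1 with genes only, 1 with only the 2 groups, 4 with the TE share as a term, 0 with the replicate block and 1 to 2 when a mouse was left out. In this comparison 5 members were at an unadjusted p under 0.05 with the replicate block (11 without it) and the median member change was -0.26. The block turned HIST1H1B to -0.19 and HIST1H2AE to 0.022 for 3TC. However, YM8, DMO5, DFO4, DFO5, CMO6, CMO3 and CFO1 share sex and number with no other mouse. The block fit therefore takes no group difference from these mice, and its shifts cannot be read as effects of pairing. Deviations from the group mean correlated at -0.61 to 0.28 between mice that share a sex and number. Values for other pairs of mice are not given here for comparison, and the main fits did not pair the mice. Such correlations cannot show whether these mice shared a cage or batch. For the slope with the TE share, total counts only gave 22 higher and 5 lower members and 1746 lower genes, and leaving out a mouse gave 9 to 13 higher and 9 to 14 lower members. Low counts limit the testis members and many others to large differences.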
